A study of Mus musculus with 4 samples.

Results

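The genes described here encode 9 calcium-binding and calcium sensor proteins of neurons, namely Calb1, Calb2, Pvalb, Vsnl1, Hpca, Hpcal1, Hpcal4, Ncald and Ncs1. They were taken by gene symbol from the array table. All 9 were found among the 19938 named genes, each with 1 probe set. Expression was measured on 4 Affymetrix Mouse Gene 1.0 ST arrays, with 1 array for each of 4 tissues. One medulloblastoma came from a PtchLacZ/+ mouse aged 5 months, 1 from a Math1-Cre;SmoM2 mouse aged 2 months and 1 from a Math1-Cre;SmoM2 mouse aged 1 month. The fourth tissue was whole cerebellum, from a wild-type animal of 2 months. PtchLacZ/+ mice have lacZ in 1 of their copies of Ptch1, whose product is the Hedgehog receptor and restrains the pathway, in all their cells. In Math1-Cre;SmoM2 mice an active form of Smoothened is switched on by Cre in the Math1 (Atoh1) lineage, which holds the granule neuron progenitors. All mice were of a mixed C57BL/6 and C3H background, and the labels do not say whether a sample pooled animals. The spread between tumours is thus the spread between 3 samples that differ in genotype and age.

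Calcium that enters a neuron is caught by EF-hand proteins, which fold a loop around the ion. Buffers such as calbindin (Calb1), calretinin (Calb2) and parvalbumin (Pvalb) mainly shape the size and duration of the calcium signal. Neuronal calcium sensors, to which the other members belong, change shape on binding calcium and pass the signal to membranes and enzymes, often by exposing a fatty acid tail. In the cerebellum, calbindin is a classical marker of Purkinje cells, parvalbumin is found in Purkinje cells and molecular layer interneurons, and calretinin is found in granule neurons and unipolar brush cells.

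The labelled tissues were checked against marker lists. All 6 markers of granule neuron progenitors and proliferation passed as higher in the tumours than in the cerebellum. Atoh1, for example, was at 11.98 in the PtchLacZ/+ tumour and at 11.84 and 11.39 in the SmoM2 tumours at 2 months and 1 month, against 4.85 in the cerebellum (log2 levels throughout). The array medians over named genes lay between 6.73 and 6.82. Without detection calls, signal above background could not be established for levels below an array's lower quartile over named genes, which lay between 5.09 and 5.17, and such levels are pointed out. The Atoh1 level of the cerebellum was 1 of them. The choroid plexus gene Ttr was at 10.81 and 11.27 in the PtchLacZ/+ and the 1-month SmoM2 tumour, against 6.23 in the cerebellum. It was at 4.50, under the lower quartile, in the 2-month SmoM2 tumour. The other choroid plexus markers were also lowest among the tumours in the 2-month SmoM2 tumour, but with much smaller gaps. Kcnj13 was at 5.88 in the PtchLacZ/+ tumour and at 4.97 (under the lower quartile) and 5.95 in the SmoM2 tumours at 2 months and 1 month, against 6.81. Kl was 0.56 and 0.82 above the cerebellum in the PtchLacZ/+ and the 1-month SmoM2 tumour, and 0.07 above it in the 2-month SmoM2 tumour. For Folr1 these differences were 0.73, 0.42 and 0.04. Kl was under the lower quartile in 2 arrays. The part of choroid plexus tissue in the results was not tested.

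A first comparison set the tumours against the cerebellum, to ask how these genes differ between Hedgehog-driven medulloblastoma and whole cerebellum of 2 months. Only the 2-month SmoM2 tumour shared the age of the cerebellum, and the other tumours differed from it in age as well. Of the 9 genes, 6 fell: Vsnl1, Calb2, Pvalb, Hpcal1, Hpcal4 and Ncs1. Calb1 and Ncald were lower in every tumour than in the cerebellum but did not pass the test, and Hpca was higher in every tumour without passing. The differences ranged from -5.48 for Vsnl1 to 2.13 for Hpca, with a median of -2.16, against a median of 0.04 over all genes tested. The test was limma's moderated test over all 19938 genes with adjusted p (Benjamini-Hochberg) under 0.05 as the threshold. It takes the spread from the 3 tumours and has to assume the same spread for the cerebellum. It called 9.30% of all genes lower and 6.70% higher in the tumours. A separate fit on the genes above the median level, which leaves out Hpcal4, called 13.7% of them lower and 6 of the 8 members in that class, with Calb1 among them (adjusted p = 0.0450). All 3 tumours lay below the cerebellum for 8 of the 9 members and for 32.0% of all genes. They lay at least 1 log2 unit (2-fold) below it for 7 members and for 7.22% of all genes. Without the PtchLacZ/+ tumour 5 members and 937 genes in all were lower and 628 higher, and without the 2-month SmoM2 tumour 8 members and 3321 genes were lower and 2689 higher, against 1855 and 1336 with all tumours. The members were chosen with such results known, so these counts describe them and do not single them out.

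**Figure D1:**
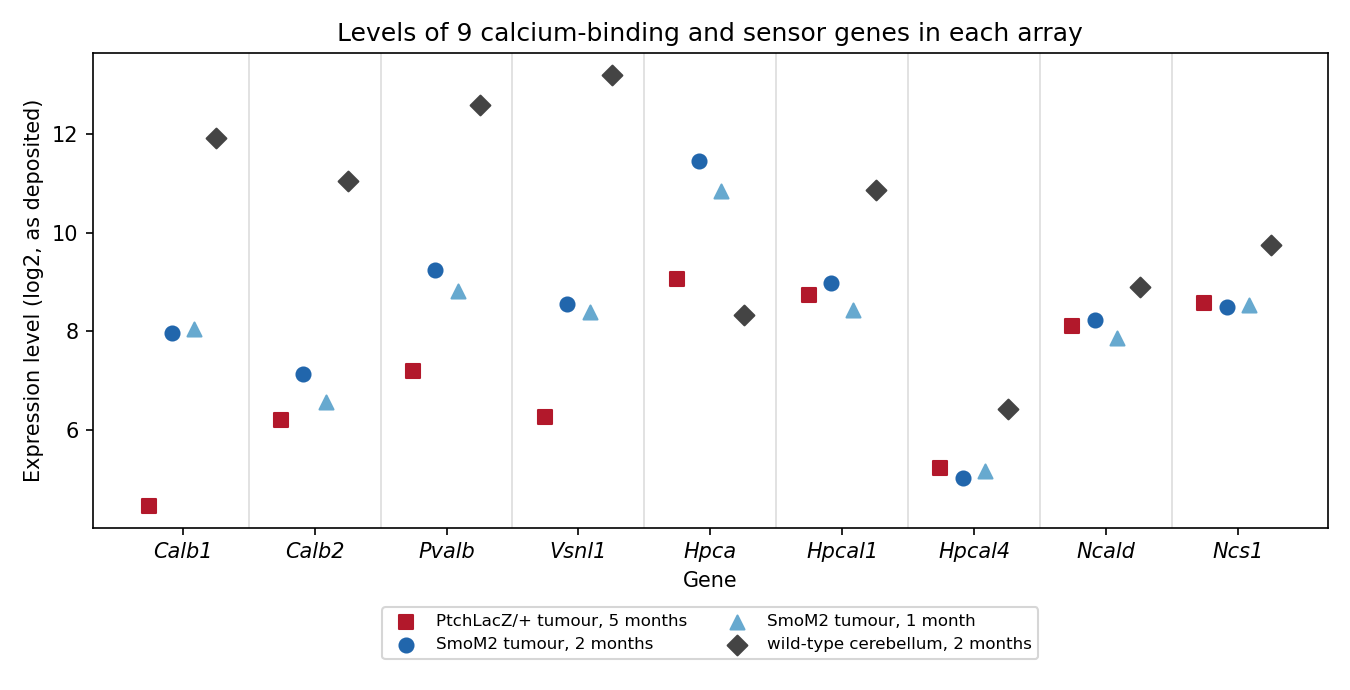
Log2 expression level of each of the 9 genes in each of the 4 arrays, with 1 point per array and no averaging. The cerebellum (diamonds) is highest for 8 genes, whereas Hpca is lowest in the cerebellum at 8.33 and highest in the 2-month SmoM2 tumour at 11.47.

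Among the buffers, Calb2 (calretinin) was at 6.21 in the PtchLacZ/+ tumour and at 7.13 and 6.57 in the SmoM2 tumours at 2 months and 1 month, against 11.06 in the cerebellum. The 3 tumours lay within 0.92 log2 units of each other and far below the cerebellum. Calb2 fell by 4.42 ± 0.38 (limma standard error, as for every ± without SD), which is 21.4-fold lower in the tumours (adjusted p = 0.00509).

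Pvalb (parvalbumin) was at 7.18 in the PtchLacZ/+ tumour and at 9.25 and 8.82 in the SmoM2 tumours at 2 months and 1 month, against 12.60 in the cerebellum. Its tumour mean was 8.42 ± 1.09 (SD, n = 3), with the PtchLacZ/+ tumour the lowest. Pvalb fell by 4.18 ± 0.81, or 18.1-fold (adjusted p = 0.0307).

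Calb1 (calbindin) was at 4.45 in the PtchLacZ/+ tumour and at 7.96 and 8.05 in the SmoM2 tumours at 2 months and 1 month, against 11.92 in the cerebellum. The level in the PtchLacZ/+ tumour was under the lower quartile of its array (5.14), so the difference there may be a lower limit. Calb1 had the widest spread between tumours of the 9 genes, 2.05 (SD, n = 3). The difference from the cerebellum was -5.11 ± 1.51 and did not pass (adjusted p = 0.0905). It passed when the PtchLacZ/+ tumour was left out (-3.92 ± 0.25, adjusted p = 0.0125) or when the 2-month SmoM2 tumour was (-5.68 ± 1.35, adjusted p = 0.0279), and with all 3 tumours in the fit on genes above the median level (adjusted p = 0.0450).

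Of the sensors, Vsnl1 (visinin-like 1, a sensor that moves to membranes when calcium rises) differed most from the cerebellum. It was at 6.26 in the PtchLacZ/+ tumour and at 8.55 and 8.39 in the SmoM2 tumours at 2 months and 1 month, against 13.22 in the cerebellum. The SmoM2 tumours were close to each other, and the PtchLacZ/+ tumour was lower still. Vsnl1 fell by 5.48 ± 0.95, or 44.7-fold (adjusted p = 0.0227).

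Hpca (hippocalcin, a sensor best known from pyramidal neurons of the hippocampus) was the member whose level was higher in every tumour than in the cerebellum. It was at 9.07 in the PtchLacZ/+ tumour and at 11.47 and 10.85 in the SmoM2 tumours at 2 months and 1 month, against 8.33 in the cerebellum. The SmoM2 tumours were thus 3.14 and 2.52 above the cerebellum and the PtchLacZ/+ tumour 0.74 above it. Over the 3 tumours the difference was 2.13 ± 0.92, with a 95% interval of -0.25 to 4.51, and did not pass (adjusted p = 0.210). With the PtchLacZ/+ tumour left out, the difference was 2.83 ± 0.35 and passed (adjusted p = 0.0210).

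Hpcal1 (hippocalcin-like 1, a sensor abundant in Purkinje cells) was at 8.73 in the PtchLacZ/+ tumour and at 8.99 and 8.44 in the SmoM2 tumours at 2 months and 1 month, against 10.88 in the cerebellum. The PtchLacZ/+ tumour lay between the SmoM2 tumours. Hpcal1 fell by 2.16 ± 0.26, or 4.47-fold (adjusted p = 0.00943).

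Ncs1 (neuronal calcium sensor 1, which binds a phosphatidylinositol kinase) was the most even member among the tumours. It was at 8.56 in the PtchLacZ/+ tumour and at 8.50 and 8.54 in the SmoM2 tumours at 2 months and 1 month, against 9.76 in the cerebellum. Its tumour mean was 8.53 ± 0.03 (SD, n = 3), and it fell by 1.22 ± 0.16, or 2.34-fold (adjusted p = 0.0119). Without the PtchLacZ/+ tumour, which leaves 1 residual degree of freedom, the difference was as large, -1.24 ± 0.25, but missed the threshold (adjusted p = 0.0584).

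Hpcal4 (hippocalcin-like 4) was at 5.23 in the PtchLacZ/+ tumour and at 5.02 and 5.16 in the SmoM2 tumours at 2 months and 1 month, against 6.42 in the cerebellum. Both SmoM2 levels were under the lower quartile of their arrays, so the fall of 1.28 ± 0.18 may be a lower limit (adjusted p = 0.0134). Without the PtchLacZ/+ tumour it missed the threshold (-1.33 ± 0.26, adjusted p = 0.0523).

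Ncald (neurocalcin delta, a close relative of hippocalcin) was at 8.11 in the PtchLacZ/+ tumour and at 8.23 and 7.86 in the SmoM2 tumours at 2 months and 1 month, against 8.89 in the cerebellum. All tumours lay below the cerebellum, by 0.66 to 1.03. The difference of -0.82 ± 0.21 did not pass (adjusted p = 0.0664), and it passed without the 2-month SmoM2 tumour (-0.91 ± 0.18, adjusted p = 0.0154).

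**Figure D2:**
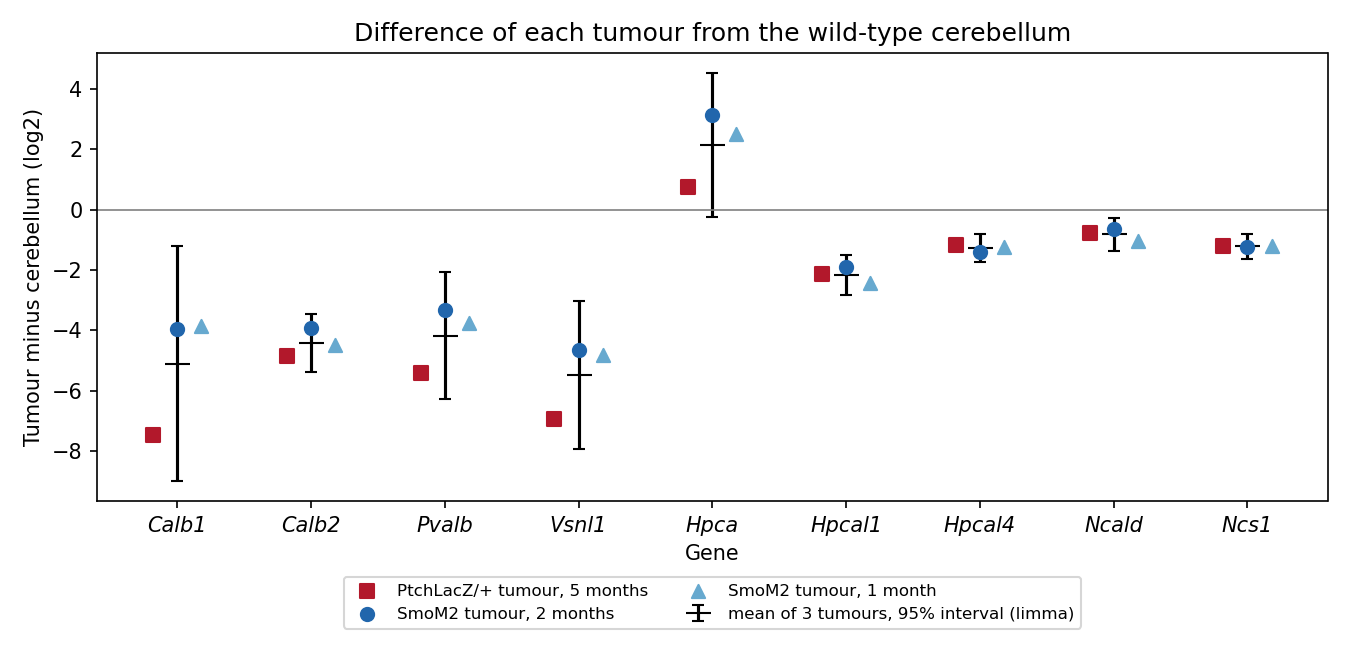
Difference of each tumour from the wild-type cerebellum (coloured points) on the log2 scale, with the mean of the 3 tumours (black dash) and its 95% interval from limma, for each gene. The tumours are close together for Hpcal1, Hpcal4, Ncald and Ncs1 and far apart for Calb1, Pvalb, Vsnl1 and Hpca.

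Markers of the cell types that hold these proteins, and of glia, moved in the same comparison. Of 8 mature granule neuron markers, 5 fell (median -3.87), and all 8 passed as lower when any 1 tumour was left out. The log2 of their summed level was 10.55 in the PtchLacZ/+ tumour and 11.19 and 11.45 in the SmoM2 tumours at 2 months and 1 month, against 14.70 in the cerebellum. In the PtchLacZ/+ tumour the highest of them was Cbln1 at 9.65, against 9.50 and 9.46 in the SmoM2 tumours. The mean log2 level of the 8 markers was 6.60 in the PtchLacZ/+ tumour and 7.65 and 7.97 in the SmoM2 tumours, against 11.34 in the cerebellum. Of 6 measured Purkinje cell markers, 5 fell (median -3.75), with a summed level of 10.76 in the PtchLacZ/+ tumour and 10.60 and 11.27 in the SmoM2 tumours, against 14.00 in the cerebellum. This sum is carried by Dner, which was at 10.55 in the PtchLacZ/+ tumour. The mean log2 level of the 6 Purkinje cell markers was 6.22 in the PtchLacZ/+ tumour and 7.33 and 7.70 in the SmoM2 tumours, against 10.91 in the cerebellum. All 7 measured inhibitory interneuron markers fell (median -2.50), with a summed level of 9.53 in the PtchLacZ/+ tumour and 9.56 and 9.92 in the SmoM2 tumours, against 12.46 in the cerebellum. Eomes, the measured marker of unipolar brush cells, fell by 1.43 ± 0.18 (adjusted p = 0.0101). Of glial markers, 3 of 4 measured for oligodendrocytes (median -2.25) and 3 of 6 for astrocytes and Bergmann glia (median -1.15) fell. Their summed levels were 8.55 and 11.33 in the PtchLacZ/+ tumour, 9.47 and 11.94 in the 2-month and 9.44 and 11.74 in the 1-month SmoM2 tumour, against 11.31 and 13.04 in the cerebellum. The astrocyte and Bergmann glia sum is carried by Slc1a3, which was at 10.58 in the PtchLacZ/+ tumour. Gfap, of the same list, went the other way without passing. It was at 8.15 in the PtchLacZ/+ tumour and at 9.33 and 8.83 in the SmoM2 tumours at 2 months and 1 month, against 7.60 in the cerebellum. Without the PtchLacZ/+ tumour 1 astrocyte and Bergmann glia marker passed as lower, and without the 2-month SmoM2 tumour 5 did. In the PtchLacZ/+ tumour, levels under the lower quartile were found for 1 granule neuron marker (Gabra6), 1 Purkinje cell marker (Ppp1r17) and 2 interneuron markers. The share of these cells in each sample was not measured, and in bulk tissue fewer cells of a type and less RNA per cell cannot be told apart.

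The PtchLacZ/+ tumour was then compared with the SmoM2 tumours, to ask whether the genes differ between tumours started at different points of the Hedgehog pathway. Genotype and age (5 months against 2 months and 1 month) cannot be told apart here. Calb1, Vsnl1, Hpca and Pvalb were lower in the PtchLacZ/+ tumour than in both SmoM2 tumours by at least 1 log2 unit, and the other 5 members were not. Across all genes, 60 (0.301%) lay that far below both SmoM2 tumours. No gene passed limma's test in this comparison (0.00% of 19938 genes, 280 at an unadjusted p under 0.05, among them these 4 members), which had 1 residual degree of freedom. After quantile normalization 14 genes passed.

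Calb1 differed by -3.56 ± 0.25 between the PtchLacZ/+ tumour and the mean of the SmoM2 tumours, with an adjusted p = 0.99. As its level in the PtchLacZ/+ tumour was under the lower quartile, this difference may be a lower limit in size. Vsnl1 differed by -2.21 ± 0.26, Hpca by -2.09 ± 0.35 and Pvalb by -1.85 ± 0.31. For each of these 4 genes the gap to the nearer SmoM2 tumour (-3.51, -2.13, -1.77 and -1.64 in that order) exceeded in size the gap between the SmoM2 tumours, which was 0.62 at most. After quantile normalization of the arrays all 4 passed. The differences were then -3.62 for Calb1, -2.30 for Vsnl1, -2.015 for Hpca and -1.89 for Pvalb, each with a standard error of 0.38. These standard errors were larger than those without this step, so passing did not go with a smaller standard error. The fit still had 1 residual degree of freedom. Calb1 also passed when the prior variance followed a trend (adjusted p = 0.0376) and when genes with a mean below the median were left out (adjusted p = 0.00102), and the other 3 did not.

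For the remaining members the gap between genotypes was smaller. Calb2 differed by -0.64 (95% interval -1.52 to 0.24), and the PtchLacZ/+ tumour lay below both SmoM2 tumours. The difference was 0.07 for Ncald (-0.69 to 0.84), 0.05 for Ncs1 (-0.62 to 0.71) and 0.02 for Hpcal1 (-0.85 to 0.89). For Hpcal4 it was 0.14, but both SmoM2 levels were under the lower quartile, so the difference is not bounded. The order of levels was thus cerebellum, SmoM2, PtchLacZ/+ for Calb1, Calb2, Pvalb and Vsnl1, and SmoM2, PtchLacZ/+, cerebellum for Hpca. For the other 4 genes the cerebellum was highest and the PtchLacZ/+ tumour was within 0.30 of each SmoM2 tumour.

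**Figure D3:**
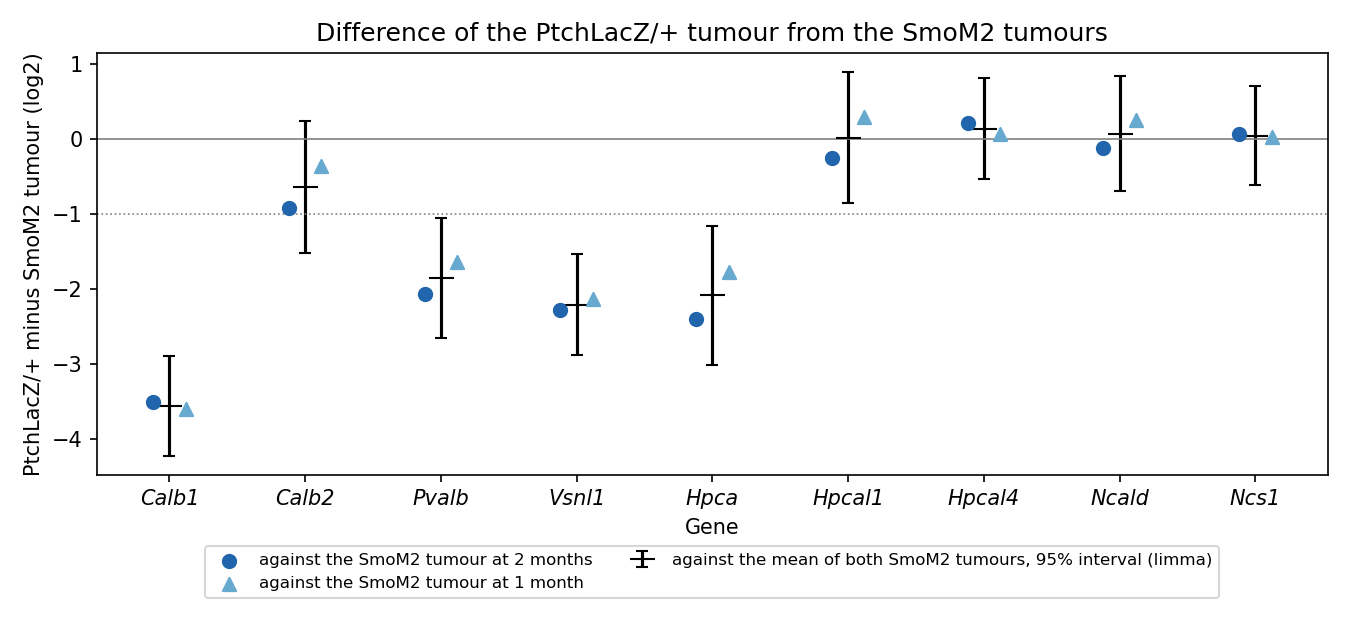
Log2 difference of the PtchLacZ/+ tumour from each SmoM2 tumour (points) and from their mean (black dash, with limma's 95% interval), for each gene. Calb1, Pvalb, Vsnl1 and Hpca lie below the dotted line at -1 against both SmoM2 tumours, and the 4 genes at the right lie around 0.

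Cell type markers moved in this comparison too. Of the 8 mature granule neuron markers, 4 were at least 1 log2 unit lower in the PtchLacZ/+ tumour than in both SmoM2 tumours, as were 3 of 6 Purkinje cell markers and 0 of 7 interneuron markers. Gabra6, a receptor subunit of mature granule neurons, was at 4.64 (under the lower quartile) in the PtchLacZ/+ tumour, against 7.40 and 7.97 in the SmoM2 tumours. Car8, a protein of Purkinje cells, was at 6.12 in the PtchLacZ/+ tumour, against 8.68 and 9.24 in the SmoM2 tumours. Not every marker of these lists went that way. Cbln1, of the granule neuron list, was at 9.65 in the PtchLacZ/+ tumour, against 9.50 and 9.46 in the SmoM2 tumours. Dner, of the Purkinje cell list, was at 10.55, against 9.59 and 10.49. Of 6 astrocyte and Bergmann glia markers 2, and of 4 oligodendrocyte markers 1, were also at least 1 log2 unit lower than in both SmoM2 tumours. The part of these cells in the member genes' differences was not tested.

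The SmoM2 tumours at 2 months and 1 month were compared with 1 array each and no test. At least 1 log2 unit lay between them for 0 of the 9 members and for 3.71% of all genes. With 9 genes a count of 0 is near that share and does not set the members apart. The differences ran from -0.14 for Hpcal4 to 0.62 for Hpca, and 6 of the 9 genes were higher at 2 months (7 after quantile normalization, where Hpcal4 was at 0.09). Calb2 and Hpcal1 followed Hpca at 0.56 and 0.55. Calb1, Vsnl1 and Ncs1, at -0.09, 0.15 and -0.04, were nearly level.

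For each member the other genes with the most similar profile were found by the root mean square difference of levels centred on each gene's mean over the 4 arrays, among 9961 other genes above the median level. Calb1 was nearest to Gabra6 (0.34) and to Cbln3 (0.34), a secreted synaptic protein of granule neurons. In the PtchLacZ/+ tumour both Calb1 and Gabra6 were under the lower quartile, so their likeness in that array is not established. Cbln3 was also the nearest to Vsnl1 (0.37), followed by Arhgef33 (0.41), which was at 4.85 in the PtchLacZ/+ tumour, under the lower quartile. Pvalb was nearest to Penk, the enkephalin precursor gene (0.14), and Rit2 (0.19), and Calb2 to Kcnab1, a potassium channel subunit gene (0.16), and Pip5k1b (0.17). Hpca was nearest to the complement gene C4b (0.36) and the homeobox gene Otx1 (0.41). Otx1 was at 6.71 in the PtchLacZ/+ tumour and at 7.97 and 8.03 in the SmoM2 tumours at 2 months and 1 month, against 5.58 in the cerebellum. For Hpcal4, Ncald and Ncs1, whose levels varied less, the nearest genes were Tanc1 (0.02), Mat2b (0.02) and Dym (0.02). These are likenesses over 4 arrays only.

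The bases before the transcription start were available from RefSeq (build GRCm38.p6) for 6 of the 9 genes. They are shown for the 3 members with an entry that lay at least 1 log2 unit lower in the PtchLacZ/+ tumour than in both SmoM2 tumours, Vsnl1, Pvalb and Hpca, and for Ncs1, the member most even among the tumours. Each is 250 bases long and ends at the most upstream start listed, written in the direction of transcription with CpG dinucleotides in capitals.
Vsnl1: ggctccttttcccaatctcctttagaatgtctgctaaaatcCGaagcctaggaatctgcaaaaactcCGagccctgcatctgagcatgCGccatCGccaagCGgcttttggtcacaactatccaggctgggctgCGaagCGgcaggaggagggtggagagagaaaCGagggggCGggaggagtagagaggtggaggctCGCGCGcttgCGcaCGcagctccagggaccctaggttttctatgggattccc
Pvalb: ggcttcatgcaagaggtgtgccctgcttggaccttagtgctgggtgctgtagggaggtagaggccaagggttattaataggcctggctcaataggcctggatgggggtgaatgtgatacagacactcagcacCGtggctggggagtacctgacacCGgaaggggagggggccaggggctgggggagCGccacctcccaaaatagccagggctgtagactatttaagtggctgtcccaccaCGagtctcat
Hpca: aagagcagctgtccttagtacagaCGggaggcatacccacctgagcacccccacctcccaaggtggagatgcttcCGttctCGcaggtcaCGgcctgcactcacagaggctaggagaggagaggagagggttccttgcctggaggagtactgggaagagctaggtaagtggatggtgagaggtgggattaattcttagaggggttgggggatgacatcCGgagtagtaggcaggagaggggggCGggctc
Ncs1: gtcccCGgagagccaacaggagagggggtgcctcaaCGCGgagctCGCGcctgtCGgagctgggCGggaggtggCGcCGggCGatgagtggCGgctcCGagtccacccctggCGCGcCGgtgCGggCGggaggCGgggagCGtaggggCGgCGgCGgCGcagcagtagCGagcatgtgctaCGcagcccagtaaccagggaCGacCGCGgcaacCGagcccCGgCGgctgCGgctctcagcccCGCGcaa

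The Vsnl1 window is chr12:11436579-11436828 on the minus strand. The Pvalb window is chr15:78206401-78206650 on the minus strand. The Hpca window is chr4:129121748-129121997 on the minus strand. The Ncs1 window is chr2:31245673-31245922 on the plus strand. The GC content was 58.0% for Vsnl1, 58.4% for Pvalb and 58.8% for Hpca, against 60.4% for Hpcal4, 66.8% for Hpcal1 and 75.6% for Ncs1. Over all promoters the median was 52.0% and the upper quartile 60.8%, so all 6 genes lay above the median. The number of CpG dinucleotides was 14, 4 and 6 in the first 3 genes and 16, 22 and 34 in the others, against a median of 6 over 27025 promoters. Among these 6 genes the counts of Vsnl1, Pvalb and Hpca were the lower ones, with 14 for Vsnl1 close to 16 for Hpcal4. No test was made. Calb1, which had the largest gap between genotypes, had no entry, nor had Calb2 and Ncald, and for Hpcal4 that gap is not bounded. Whether CpG content goes with the gap was not tested. The GC box GGGCGG, sought on both strands, occurred in each of these promoters except that of Pvalb, and in 33.0% of all promoters. The E-box CAGCTG occurred only in that of Hpca and in 12.7% of all. The Gli site GACCACCCA (0.207% of all promoters), the cAMP response element TGACGTCA (1.60%) and the letters TATAAA (12.98%) were not found in any of the 6 windows.

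Other genes that read or remove calcium were compared through 6 lists. Of 6 measured genes of the other neuronal calcium sensors, 2 fell (median -0.10): Kcnip4 (-4.12 ± 0.57, adjusted p = 0.0129) and Kcnip1 (-1.75 ± 0.29, adjusted p = 0.0208), whose products bind voltage-gated potassium channels. Kcnip1 missed the threshold without the PtchLacZ/+ tumour (adjusted p = 0.0534), which left 1 gene of the list. Kcnip3, a family member also known as a transcriptional repressor, was at 8.54 in the PtchLacZ/+ tumour and at 9.56 and 8.71 in the SmoM2 tumours at 2 months and 1 month, against 7.94 in the cerebellum. Its difference of 0.99 ± 0.43 did not pass (adjusted p = 0.211), and it passed without the 2-month SmoM2 tumour (adjusted p = 0.0293). The retinal sensor genes Rcvrn and Guca1a were under the lower quartile in all arrays.

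Of 10 measured calmodulins and calmodulin-like genes, 5 fell (median -0.64). Caln1 (calneuron 1) fell by 3.70 ± 0.34 (adjusted p = 0.00576) and Cabp1 by 1.57 ± 0.18 (adjusted p = 0.00862). The calmodulin genes Calm2 and Calm3 fell by less than 1 log2 unit each. Without the PtchLacZ/+ or without the 1-month SmoM2 tumour 2 genes of this list passed, Caln1 and Cabp1 in both cases. Of 17 further EF-hand genes, 1 fell and 1 rose (median -0.04). S100b, a glial protein, fell by 2.65 ± 0.60 (adjusted p = 0.0462) but missed the threshold without the PtchLacZ/+ tumour (adjusted p = 0.0510) or the 1-month SmoM2 tumour (adjusted p = 0.0733). Rcn1, a calcium-binding protein of the endoplasmic reticulum, rose by 2.41 ± 0.20 (adjusted p = 0.00488).

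Of 6 genes for small calmodulin-binding proteins, 2 fell and 2 rose (median -0.57). Pcp4, a Purkinje cell protein that speeds calcium exchange on calmodulin, fell by 3.80 ± 0.60 (adjusted p = 0.0176), and Pcp4l1 fell by 1.90 ± 0.23 (adjusted p = 0.00998). Marcksl1 and Marcks, whose products bind membrane lipids, actin and calmodulin, rose by 1.97 ± 0.19 and 1.73 ± 0.21 (adjusted p = 0.00639 and 0.00943).

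Of 16 measured kinase and calcineurin genes, 12 fell and none rose (median -1.58), against 9.30% lower among all genes. Without the PtchLacZ/+ tumour 5 fell, and Camk4 was then not among them (adjusted p = 0.0712). Camk4, a nuclear kinase of granule neurons, fell by 3.49 ± 0.69 (adjusted p = 0.0320) and its upstream kinase gene Camkk2 fell by 2.84 ± 0.20 (adjusted p = 0.00396). Of 20 measured genes for calcium pumps, exchangers and store channels, 11 fell and none rose (median -1.19), with 7 lower without the PtchLacZ/+ tumour. Slc24a2, a potassium-dependent sodium-calcium exchanger, fell by 3.78 ± 0.32 (adjusted p = 0.00511), and Atp2a3, a calcium pump of the endoplasmic reticulum found in Purkinje cells, fell by 3.40 ± 0.53 (adjusted p = 0.0168). Itpr2 differed by 0.45 ± 0.28 and did not pass (adjusted p = 0.376).

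The split between tumours seen for Calb1, Pvalb, Vsnl1 and Hpca was also sought in these lists. A level at least 1 log2 unit lower in the PtchLacZ/+ tumour than in both SmoM2 tumours was measured for Kcnip4, Pcp4 and Atp2a3. Kcnip4 was at 4.91 in the PtchLacZ/+ tumour, under the lower quartile. These were 1 of 6 other sensor genes, 1 of 6 small calmodulin-binding protein genes and 1 of 20 pump, exchanger and store channel genes. No other gene of the 6 lists had the split, and 0.301% of all genes did. Pcp4 was at 7.52 in the PtchLacZ/+ tumour, against 8.80 and 8.94 in the SmoM2 tumours at 2 months and 1 month, and at 12.22 in the cerebellum.

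**Figure D4:**
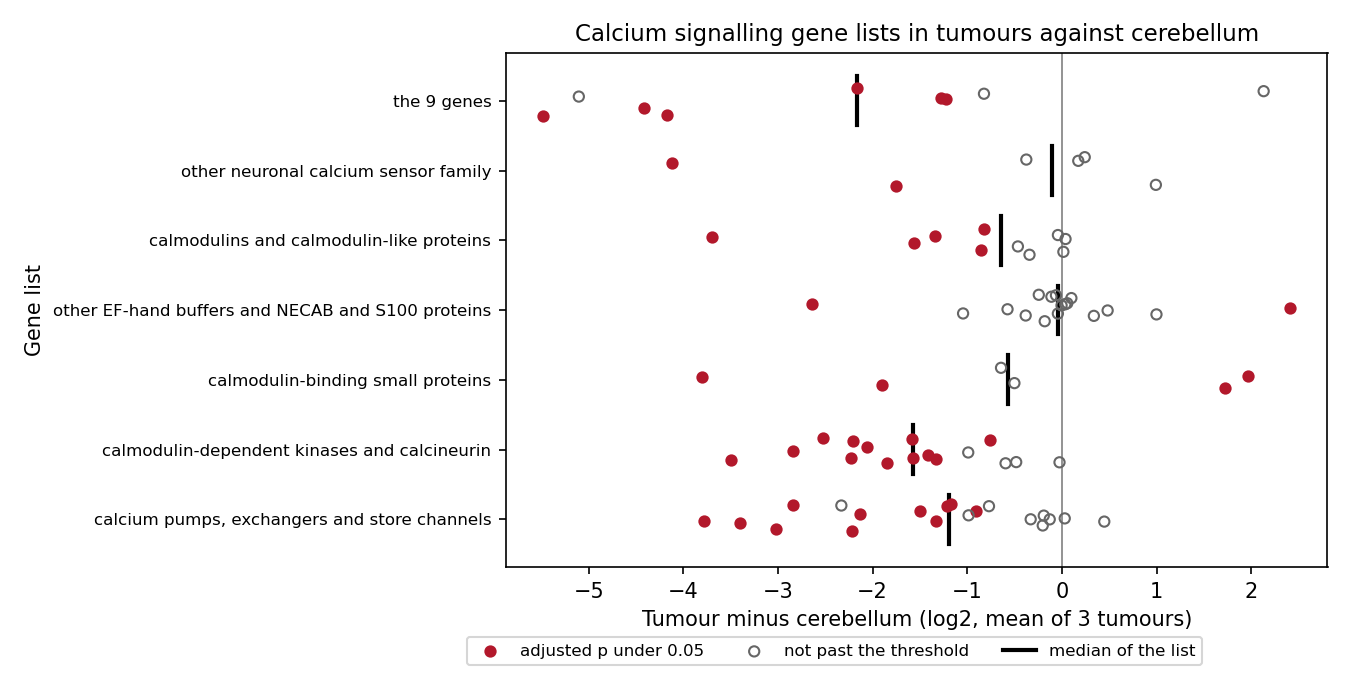
Difference between the mean of the 3 tumours and the cerebellum on the log2 scale for every measured gene of the 9 genes and of 6 lists of calcium signalling genes, with 1 point per gene and a black bar at the median of each list. Filled points passed limma's test (adjusted p under 0.05). Called genes lie left of 0 in the lists of kinases, pumps and sensors, and Rcn1, Marcks and Marcksl1 lie right of it.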

How the data were processed

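The authors deposited log2 values of 35557 probe sets on 4 arrays. The submitters' processing notes name Affymetrix Expression Console. How probes were summarised and arrays normalized is not given in the sources, and the values' range of 2.71 to 14.9 is the basis for reading them as log2. The platform annotation gave 21789 probe sets a single symbol, 1621 several and 12147 none. Symbols were updated by Entrez identifier for 21698 of them through RefSeq (GRCm38.p6), and the probe set with the highest mean stood for each of the 19938 genes. Tests used limma 3.58.1 in R 4.3.3 (lmFit and eBayes, 2 residual degrees of freedom for tumours against cerebellum and 1 for PtchLacZ/+ against SmoM2), with Benjamini-Hochberg adjustment over all genes. The fit was tested on simulated data in which the cerebellum had the same spread as the tumours. Such data cannot check the assumption of equal spread. Named genes were the 9 members, the 2 most positive and 2 most negative tumour differences of each of 6 pathway and 8 marker lists, and the 2 nearest genes of each member; others named were chosen after their values were seen. The members and lists were chosen with earlier results of these data known. Alternatives were another between-array scaling, a filter on low levels, a trended prior variance, the mean of a gene's probe sets, leaving out each tumour and the SmoM2 tumours alone. The number of arrays limits the precision. Whether probe sets of related sensors read each other's transcripts was not tested.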

Additional observations from a re-analysis of the deposited data

How the results depend on the processing

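The count of members lower in tumours than in cerebellum (6) was 6 under quantile normalization, median centring, the filter on low levels, averaged probe sets and a trended prior variance, 5 with the SmoM2 tumours alone, and between 5 (without the PtchLacZ/+ tumour) and 8 (without the 2-month SmoM2 tumour) when 1 tumour was left out. The count of all genes lower in tumours (1855) lay between 937 and 3321 and that of genes higher (1336) between 628 and 2689 when 1 tumour was left out. With the SmoM2 tumours alone the counts were 937 and 628, since that fit has the same residuals as leaving out the PtchLacZ/+ tumour. Of the members, 0 were called in PtchLacZ/+ against SmoM2 tumours as deposited, 4 after quantile normalization, 1 among genes above the median level and 1 with a trended prior variance; the cause was not tested. Quantile normalization called 14 genes in all there. The filter on low levels left out Hpcal4 and brought in Calb1 (adjusted p = 0.0450), so its 6 genes were not the 6 called without it. The sign of every member's difference from the cerebellum was the same under these settings. Against the 2-month SmoM2 tumour alone, with no test, PtchLacZ/+ differences of Hpcal1 (0.02 against the mean of both) and Ncald (0.07) were -0.25 and -0.12. The difference of Hpcal4 between the SmoM2 tumours at 2 months and 1 month was -0.14 as deposited and 0.09 after quantile normalization. No paired analysis was possible because the labels give no replicate numbers that groups share.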
